A study of Mus musculus with 63 samples.

Results

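miR-21a is made from a single mouse hairpin that gives 2 mature miRNAs, miR-21a-5p (mmu-miR-21a-5p in the table) from its 5′ arm and miR-21a-3p (mmu-miR-21a-3p) from its 3′ arm. Both were taken by name from a table of 2110 counted loci, where each arm has 1 locus, and both are described here in 4 sorted kidney cell types under 4 conditions. The mature sequences (RefSeq, GRCm38.p6, 5′ to 3′) are shown with the seed, bases 2 to 8, in capitals, because the seed sets which mRNAs an arm can pair with.
miR-21a-5p: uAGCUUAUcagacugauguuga
miR-21a-3p: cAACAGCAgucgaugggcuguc

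The arms therefore carry different seeds. In the reference of 1679 mature mouse miRNA names, AGCUUAU was shared with 1 other miRNA, miR-21c, and AACAGCA with none. The hairpin of 92 bases lies on the minus strand of chromosome 11 (chr11:86584067-86584158, GRCm38). The 5p arm covers chr11:86584120-86584141 and the 3p arm chr11:86584082-86584103, with 16 bases between them. The hairpin sits inside the last exon of Vmp1 (chr11:86583865-86585451), within the stretch annotated as its 3′ UTR, and Vmp1 encodes a membrane protein of autophagy.

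A miRNA hairpin is cut from its transcript by Drosha and then by Dicer, and usually 1 arm of the resulting duplex is loaded into Argonaute while the other is degraded. For miR-21 the 5p arm is the main product. miR-21 is known as an injury miRNA that is induced through AP-1, STAT3 and TGF-β/SMAD signaling, represses Pdcd4, Spry1 and Ppara, and promotes fibrosis in mouse kidney.

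The study sorted 4 populations from the kidneys of male C57BL/6 mice of 8 to 12 weeks and sequenced their small RNA (sRNA-Seq). These were endothelial cells (ECs, CD31+), F4/80hi macrophages (Macs), proximal tubular cells that bind LTL (PT cells) and PDGFR-β+ stromal cells. Sham mice had surgery without obstruction, UUO-2 and UUO-7 mice had 2 or 7 days of unilateral ureteric obstruction, and R-UUO mice had 7 days of obstruction followed by reimplantation of the ureter and 2 weeks of recovery. Each condition has 4 mice, each mouse gave all 4 populations, and 1 PDGFR-β+ library of UUO-7 was removed by the authors as an outlier, which leaves 63 libraries of 16 mice. The mice sequenced were the 4 of 5 per condition whose Havcr1 expression, a tubular injury marker, lay nearest the mean, so the spread between mice may be smaller than in the whole group.

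The libraries hold 616565 to 10819385 counts, fewest in PT cells, and 3 counts correspond to 0.277 to 4.87 CPM, the count scaled to library depth. In each condition the summed level of each cell type's marker miRNAs was highest in its own population. PT libraries of 2 mice carried more of the 4 stromal markers (miR-143-3p, miR-145a-5p, miR-199a-5p and miR-214-3p) than the rest of their groups, as did the EC libraries of 2 R-UUO mice. Some changes within PT cells, and the EC changes from sham in R-UUO, are also given without these libraries. Comparisons between cell types were repeated only with whole mice left out, not with these libraries alone left out. The sort cannot tell a change in every cell from a change in the mix of cells within a gate.

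The level of miR-21a-5p differed widely between the populations. With all 63 libraries scaled together, sham Macs held 35077, 31929, 33527 and 30479.6 CPM, in order of mouse number. Sham PT cells held 5161, 6357, 7016 and 6337 CPM. Sham PDGFR-β+ cells held 2471, 1282, 1879 and 1407 CPM. Sham ECs held 1530.5, 1325, 1716 and 1413 CPM. Macs thus lay above PT cells, and PT cells above the other populations, with no overlap, while PDGFR-β+ cells and ECs overlapped. Macs exceeded PT cells 5.27-fold (log2 difference 2.40 ± 0.27 SE, edgeR adjusted p = 3.27e-11) and PT cells exceeded PDGFR-β+ cells 3.53-fold (edgeR adjusted p = 4.36e-08). PDGFR-β+ cells and ECs did not differ beyond their spread (log2 difference 0.23 ± 0.26, 95% interval -0.27 to 0.74, edgeR adjusted p = 0.51). Many miRNAs differ between these populations, so calls are common: 52.2%, 53.7% and 38.7% of the 671 loci tested were called between these neighbors, at an FDR under 0.05 and a fold above 1.5.

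**Figure D1:**
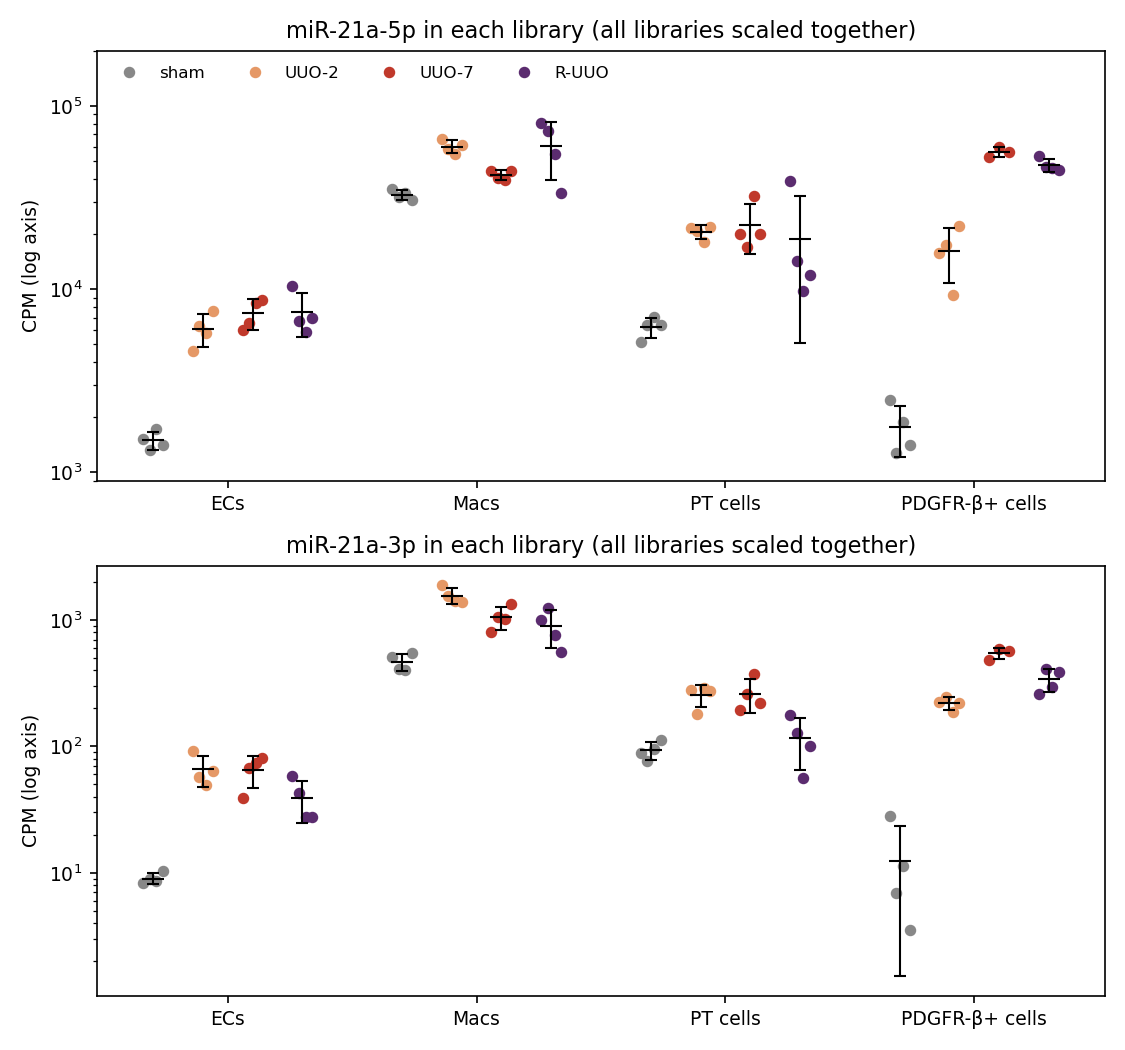
Level of miR-21a-5p (top) and miR-21a-3p (bottom) in CPM on a log axis for each of the 63 libraries, grouped by cell type and colored by condition, with the mean and SD in black. Among the sham populations Macs held the highest level of both arms, and PDGFR-β+ cells moved from 1282 to 2471 CPM of the 5p arm in sham to 52490.1 to 59646 CPM at UUO-7.

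Obstruction changed this order. At UUO-2 it was still Macs, PT cells, PDGFR-β+ cells and ECs, but PT cells and PDGFR-β+ cells now overlapped (log2 difference 0.35 ± 0.26, 95% interval -0.16 to 0.85, edgeR adjusted p = 0.266). Macs exceeded PT cells 2.92-fold and PDGFR-β+ cells exceeded ECs 2.66-fold (edgeR adjusted p = 1.33e-06 and 1.37e-05). The shares of all loci called in these comparisons were 51.7% (Macs and PT cells), 50.1% (PT and PDGFR-β+ cells) and 28.8% (PDGFR-β+ cells and ECs).

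At UUO-7 PDGFR-β+ cells held 52490.1, 59646 and 55987 CPM of miR-21a-5p (3 libraries) and Macs 44203, 40205, 39338 and 44107 CPM. Every PDGFR-β+ library lay above every Mac library on this scale, but the difference did not pass the test (0.42 ± 0.28, 95% interval -0.12 to 0.96, edgeR adjusted p = 0.196). Its direction depended on the scaling: by library size alone it was -0.48, in favor of Macs, and without UUO-7 mouse 3, whose PDGFR-β+ library is the one removed, it was -0.040. Macs exceeded PT cells 1.88-fold and PT cells exceeded ECs 3.02-fold (edgeR adjusted p = 0.00272 and 9.28e-07). Of all loci, 56.9% (PDGFR-β+ cells and Macs), 47.2% (Macs and PT cells) and 52.2% (PT cells and ECs) were called.

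In R-UUO the Mac libraries spread widely, at 80595, 72514, 54310.1 and 33342 CPM, and the PDGFR-β+ libraries held 52963, 46269, 45824 and 44802 CPM. These overlapped (log2 difference 0.34 ± 0.26, 95% interval -0.16 to 0.85, edgeR adjusted p = 0.266). Without mouse 5, which has the lowest Mac value, the difference rose to 0.72 and was called (edgeR adjusted p = 0.0352), and by library size alone it was 1.15. PDGFR-β+ cells exceeded PT cells 2.54-fold and PT cells exceeded ECs 2.49-fold (edgeR adjusted p = 1.8e-05 and 2.55e-05). The last of these fell from a log2 of 1.32 to 0.88 without mouse 1. The shares of loci called were 52% (Macs and PDGFR-β+ cells), 49.9% (PDGFR-β+ and PT cells) and 53.8% (PT cells and ECs).

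By group means the order of miR-21a-3p was that of the 5p arm in sham, UUO-2 and R-UUO. At UUO-7 it differed only in the place of Macs and PDGFR-β+ cells, whose 5p difference was not called. There Macs held 804, 1066, 1017 and 1343 CPM of the 3p arm and PDGFR-β+ cells 486, 587 and 569 CPM, so Macs stayed 1.93-fold higher with no overlap (edgeR adjusted p = 0.012). PDGFR-β+ cells exceeded PT cells 2.08-fold (edgeR adjusted p = 0.00499), where 49% of all loci were called. That call was lost without UUO-7 mouse 2 or mouse 5 (log2 differences of 0.95 and 0.91). In sham, PDGFR-β+ cells and ECs did not differ in the 3p arm (log2 difference 0.54 ± 0.33, 95% interval -0.12 to 1.19, edgeR adjusted p = 0.198), though without sham mouse 4 the difference reached 0.88 (edgeR adjusted p = 0.049) and without mouse 1 it turned to -0.36. PT and PDGFR-β+ cells did not differ at UUO-2 (0.22 ± 0.30, 95% interval -0.37 to 0.82, edgeR adjusted p = 0.563).

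Counted as a share of its own library, which needs no scaling, miR-21a-5p was among the most abundant miRNAs of injured Macs. It made up 4.35% to 5.3% of all counts in sham, where it ranked 6 to 8 among the loci. At UUO-2 it made up 10.6% to 12.2% and ranked 1 to 2. In sham PDGFR-β+ cells its share was 0.0884% to 0.162% (rank 42 to 53). It was 0.686% to 1.38% after 2 days of obstruction, 4.65% to 6.1% (rank 6) after 7 days and 3.3% to 4.69% after reversal. Sham PT cells gave 0.79% to 0.923% and injured PT cells 2.33% to 2.68% at UUO-2. Sham ECs gave 0.0969% to 0.109% and ECs of UUO-2 mice 0.355% to 0.524%.

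Within PDGFR-β+ cells, which hold the fibroblasts and pericytes of the kidney, both arms rose at every step of obstruction. For these comparisons the libraries of 1 cell type were scaled together. miR-21a-5p was at 1804, 1117, 1419.5 and 1124 CPM in sham and at 13701, 13935, 7553 and 17236 CPM at UUO-2. It was at 37934, 45727 and 44864 CPM at UUO-7. No group overlapped with another of these 3. The rise over sham was 9.59-fold at UUO-2 (log2 3.26 ± 0.23 SE, edgeR adjusted p = 1.53e-07) and 31.4-fold at UUO-7 (4.97 ± 0.25, edgeR adjusted p = 5.91e-10). The step from UUO-2 to UUO-7 was 3.27-fold (1.71 ± 0.23, edgeR adjusted p = 3.98e-05). Against sham, 6.29% of the 477 loci tested were called at UUO-2 and 48.2% at UUO-7, and 33.8% between UUO-2 and UUO-7. At UUO-7 the median log2 change of all loci was 0.50, so the change of miR-21a-5p is to be read against that shift.

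miR-21a-3p in the same cells was at 20.6, 6.03, 8.55 and 2.8 CPM in sham, which rests on 8 to 147 counts per library. It was at 195, 196, 153 and 173 CPM at UUO-2 and at 351, 450.0 and 456 CPM at UUO-7. The groups did not overlap. The rise was 18.1-fold at UUO-2 (4.18 ± 0.42, edgeR adjusted p = 8.12e-06) and 42.2-fold at UUO-7 (5.40 ± 0.45, edgeR adjusted p = 2.44e-07). Its further rise from UUO-2 to UUO-7 (1.22 ± 0.39, edgeR adjusted p = 0.0218) was no longer called without UUO-2 mouse 3, UUO-7 mouse 4 or UUO-7 mouse 5, with log2 changes of 1.15, 1.16 and 1.16.

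Most leukocyte markers were higher in the same libraries. Of the 5, miR-142a-3p, miR-142a-5p and miR-223-3p rose at UUO-7 (log2 4.25, 2.22 and 2.26, edgeR adjusted p = 4.65e-06, 4.81e-05 and 0.0383). miR-150-5p did not pass the test (0.77, edgeR adjusted p = 0.163), and miR-511-3p fell (-2.77, edgeR adjusted p = 0.0369), with 48.2% of all loci called. miR-142a-5p, the most abundant of the 5 leukocyte markers in Macs, stood in sham PDGFR-β+ cells at 0.196% of its Mac level, from mean CPM, and then at 1.06% (UUO-2), 1.95% (UUO-7) and 0.695% (reversal). miR-21a-5p stood there at 5.37%, 27.0%, 134% and 78.9% of its Mac level in the same order. For miR-142a-3p, the other arm of that marker, the share at UUO-7 was larger than for miR-142a-5p. Its mean in PDGFR-β+ cells was 1.4, 17.4, 27.5 and 7.05 CPM, against 719, 1060, 379 and 717 CPM in Macs. All 5 markers (miR-142a-3p, miR-142a-5p, miR-223-3p, miR-150-5p and miR-511-3p) were counted in every PDGFR-β+ library of sham and UUO-2, and 4 of the 5, all but miR-511-3p, in every library of UUO-7 and R-UUO. Their summed level per library was 85.2 to 194 CPM in sham, 309 to 366 CPM after 2 days of obstruction, 325 to 725 CPM after 7 days and 146 to 236 CPM after reversal, against 18799.8 to 21844 CPM in Macs at UUO-7. The stromal markers moved both ways in these cells. miR-143-3p and miR-145a-5p fell at UUO-7 (-1.48 and -1.28, edgeR adjusted p = 9.32e-05 and 0.00624), while miR-199a-5p (2.39 at its chromosome 1 locus) and miR-214-3p (3.06) rose. Their sum, mostly miR-143-3p, was 322345 to 394905 CPM in sham, 129506 to 156586 at UUO-7 and 78659 to 139041 in R-UUO. The part of these shifts in the level of miR-21a-5p was not tested.

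In ECs both arms rose early and then held their level. miR-21a-5p was at 920.1, 856, 1065 and 879 CPM in sham, at 3434, 4559, 3676 and 5060.1 CPM at UUO-2 and at 4159, 4567, 5466 and 5524 CPM at UUO-7. Every injured library lay above every sham library, while UUO-2 and UUO-7 overlapped. The rise was 4.5-fold at UUO-2 (2.17 ± 0.19, edgeR adjusted p = 1.23e-06) and 5.3-fold at UUO-7 (2.41 ± 0.19, edgeR adjusted p = 2.95e-07). Against sham, miR-21a-5p had the smallest p of the 469 loci tested at both times of obstruction and after reversal, where 1.71%, 11.5% and 16.8% of loci were called. From UUO-2 to UUO-7, where 1.92% were called, neither arm passed the test (5p 0.24 ± 0.18, edgeR adjusted p = 0.636, and 3p -0.086 ± 0.28, edgeR adjusted p = 0.945).

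The 3p arm was scarce in ECs, at 4.97, 5.72, 5.35 and 6.38 CPM in sham (48 to 59 counts). It was at 68.6, 42.1, 31.8 and 42.6 CPM at UUO-2 and at 27.3, 47.4, 47.6 and 51.3 CPM at UUO-7. All injured libraries lay above all sham libraries, with a rise of 8.21-fold (3.04 ± 0.30, edgeR adjusted p = 4.34e-06) and 7.74-fold (2.95 ± 0.30, edgeR adjusted p = 5.95e-06). miR-142a-5p in ECs was at 0.0926% of its Mac level in sham and at 0.844% at UUO-7. miR-21a-5p was at 4.57% and 17.7% of its Mac level. The 5 leukocyte markers summed to 2802 to 3672 CPM in sham ECs and 2086 to 2839.9 CPM at UUO-7, nearly all of it miR-150-5p, with miR-511-3p at 0 in at least 1 library of UUO-7. The 4 stromal markers in ECs of UUO-7 summed to 8029, 7943, 17104 and 13676 CPM, or 5.74%, 5.67%, 12.2% and 9.77% of the PDGFR-β+ mean. The share was 2.98% to 6.52% in sham and 4.57% to 7.85% at UUO-2. With all libraries scaled together, miR-21a-5p in the same UUO-7 libraries was at 5950, 6511, 8448 and 8752 CPM. The part of stromal cells in the EC level was not tested.

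In PT cells, the epithelium that takes most of the damage in obstruction, miR-21a-5p was at 6172, 7329, 8221 and 7569 CPM in sham and at 24986, 23702, 20698 and 24376 CPM at UUO-2. It was at 21502, 19277, 36104 and 21704 CPM at UUO-7. Both injured groups lay wholly above sham and overlapped each other, and UUO-7 mouse 4 stood apart at the top. The rise was 3.2-fold at UUO-2 (1.68 ± 0.36, edgeR adjusted p = 0.00455) and 3.37-fold at UUO-7 (1.75 ± 0.36, edgeR adjusted p = 0.000952). Without UUO-7 mouse 4 and R-UUO mouse 1, an analysis added after seeing the data, the UUO-7 rise was 1.48 on the log2 scale (edgeR adjusted p = 3.2e-07). Of the 330 loci tested, 19.1% were called at UUO-2, 43% at UUO-7 and 4.24% between the 2 times, where miR-21a-5p was not called (0.072 ± 0.35, edgeR adjusted p = 0.909).

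miR-21a-3p in PT cells was at 107, 88.2, 112 and 134 CPM in sham, 328, 208, 331 and 304 CPM at UUO-2 and 207, 296, 419 and 238 CPM at UUO-7. The injured groups again lay wholly above sham. The rise was 2.65-fold (1.41 ± 0.30, edgeR adjusted p = 0.00455) and 2.63-fold (1.39 ± 0.30, edgeR adjusted p = 0.00156), and from UUO-2 to UUO-7 the log2 change was -0.014 ± 0.29 (edgeR adjusted p = 0.968).

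In Macs, which held the most miR-21a in sham, the change was smaller. miR-21a-5p was at 54696, 49998, 54599 and 44766 CPM in sham and at 111489, 105229, 94361 and 114163 CPM at UUO-2. It was at 77414, 70532, 73264 and 67299 CPM at UUO-7. The 3 groups did not overlap, with UUO-7 between sham and UUO-2. The rise at UUO-2 was 2.08-fold (1.06 ± 0.18, edgeR adjusted p = 0.000208). At UUO-7 the log2 difference from sham was 0.50 ± 0.18 and that from UUO-2 was -0.56 ± 0.18; both passed the FDR (edgeR adjusted p = 0.0287 and 0.0224) but missed the fold of 1.5 and so were not called. Without any 1 of the 8 libraries of sham and UUO-7 the first of these lost the FDR as well, at 0.29 to 0.40. The difference from UUO-2 was called without UUO-2 mouse 3, UUO-7 mouse 2 or UUO-7 mouse 3 (-0.62, -0.60 and -0.59). Of the 457 loci tested in Macs, 27.6% were called at UUO-2, 43.1% at UUO-7 and 30.6% between them.

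The 3p arm moved more than the 5p arm in Macs. It was at 797, 647, 658 and 802 CPM in sham, 3184, 2773, 2471 and 2591 CPM at UUO-2 and 1409, 1869.8, 1895 and 2049 CPM at UUO-7, again without overlap. The rise was 3.79-fold at UUO-2 (1.92 ± 0.20, edgeR adjusted p = 1.75e-06) and 2.49-fold at UUO-7 (1.31 ± 0.19, edgeR adjusted p = 2.81e-05). The fall from UUO-2 to UUO-7 (-0.61 ± 0.19, edgeR adjusted p = 0.0202) was close to the limits of the call and was lost without UUO-2 mouse 1, UUO-2 mouse 2, UUO-7 mouse 2 or UUO-7 mouse 4, with log2 changes from -0.60 to -0.51.

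**Figure D2:**
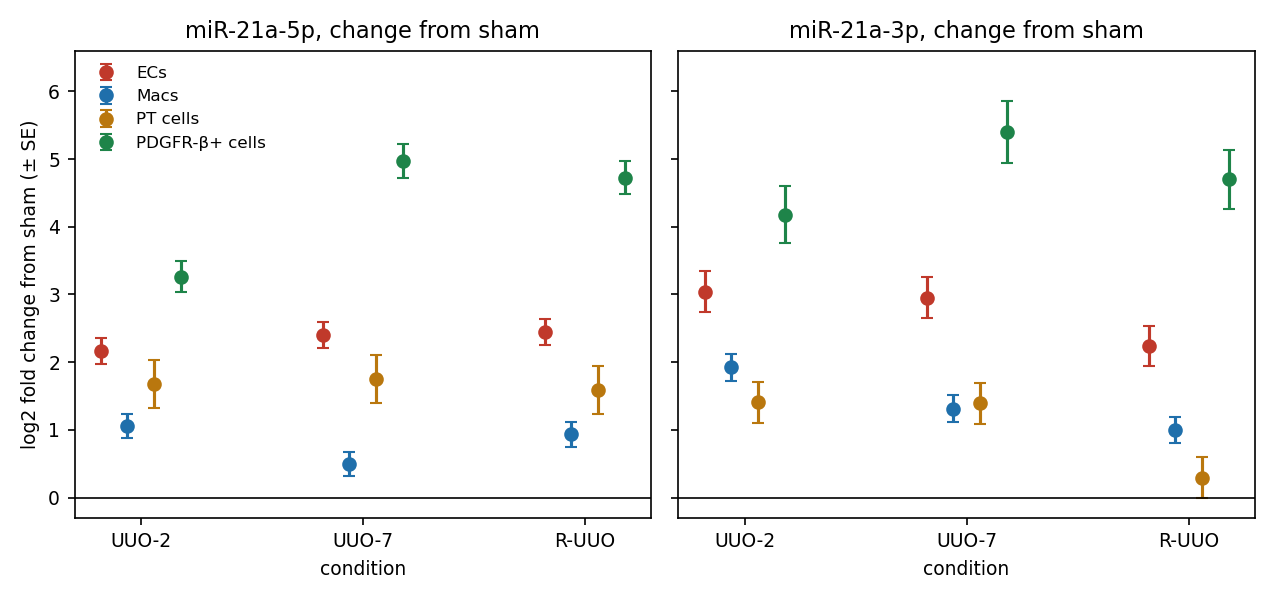
Log2 fold change from sham of miR-21a-5p (left) and miR-21a-3p (right) for each injured group and cell type, with SE as error bars; the 3 changes of a cell type share its sham libraries. PDGFR-β+ cells lie highest in both plots at all 3 conditions, and the 3p arm of PT cells returns to 0.29 in R-UUO.

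Whether the populations differed in their response was tested on the changes themselves, each cell type against the mean of the other 3. The change of miR-21a-5p in PDGFR-β+ cells was larger by a log2 of 1.66 ± 0.30 SE (UUO-2), 3.49 ± 0.32 (UUO-7) and 3.16 ± 0.31 (reversal) (edgeR adjusted p = 0.000126, 5.47e-13 and 3.02e-12). For miR-21a-3p the corresponding differences were 2.05 ± 0.37, 3.55 ± 0.39 and 3.57 ± 0.38 (edgeR adjusted p = 0.000126, 1.41e-10 and 4.43e-11). The median over the 671 loci was 0.095, 0.33 and 0.21, and 6.41%, 22.8% and 25.6% of them were called. These calls held under every alternative tried, including each mouse left out.

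The change of miR-21a-5p in Macs was smaller than the mean change of the other 3 populations, which includes the large change of PDGFR-β+ cells. The log2 differences were -1.44 ± 0.30 (UUO-2), -2.69 ± 0.31 (UUO-7) and -2.01 ± 0.30 (reversal) (edgeR adjusted p = 0.000404, 6.41e-10 and 6.28e-07). miR-21a-3p gave -1.07 ± 0.35, -2.07 ± 0.36 and -1.45 ± 0.35 (edgeR adjusted p = 0.0408, 9.2e-06 and 0.00203). Its changes were not smallest in Macs throughout. Fitted within each cell type, the log2 rise of the 3p arm was 1.92, 1.31 and 1.00 in Macs and 1.41, 1.39 and 0.29 in PT cells, in the same order. Of all loci, 8.79%, 20.1% and 15.6% were called in these comparisons. The UUO-2 call of the 5p arm was lost without UUO-2 mouse 1, UUO-2 mouse 4 or sham mouse 3 (-1.15, -1.08 and -1.17), and that of the 3p arm was lost without any 1 of 7 of the 8 mice, all but sham mouse 1 (-1.11 to -0.71).

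In PT cells the change of the 3p arm was smaller than the mean change of the other 3 populations at each condition, though not smaller than in each of them. The differences were -1.44 ± 0.36, -1.65 ± 0.36 and -2.27 ± 0.37 (edgeR adjusted p = 0.00395, 0.000301 and 2.73e-06). For the 5p arm the differences were -0.31 ± 0.30, -0.71 ± 0.30 and -1.06 ± 0.30 (edgeR adjusted p = 0.68, 0.0796 and 0.00588), of which only the last was called. Whether the arms differed in this was not tested here. Within PT cells the arm ratio, described below, was called against sham in R-UUO but not at UUO-2 or UUO-7. With the mouse as a block, since all 4 populations came from the same mice, the UUO-7 difference of the 5p arm was called too (-0.73, edgeR adjusted p = 0.0153), as it was without sham mouse 1 (-0.89). The R-UUO call was lost without R-UUO mouse 2 (-0.84) or sham mouse 3 (-0.96). Of all loci, 11.6%, 23.8% and 18% were called. In ECs no difference was called, with values from -0.090 to 0.45 and 0.149%, 11.8% and 12.2% of loci called.

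After 2 weeks of reversal miR-21a-5p had not returned to its sham level in any of the populations. In PDGFR-β+ cells it was at 43001, 33404, 31998 and 36389 CPM in R-UUO, 26.5-fold above sham (4.73 ± 0.24, edgeR adjusted p = 6.4e-10). Against UUO-7 it overlapped and did not differ beyond the spread (-0.24 ± 0.23, 95% interval -0.68 to 0.20, edgeR adjusted p = 0.62). miR-21a-3p, at 213, 296, 206 and 317 CPM, lay wholly below UUO-7, but that difference did not pass the test (-0.70 ± 0.39, edgeR adjusted p = 0.358). It stayed 26-fold above sham (4.70 ± 0.43, edgeR adjusted p = 3e-07). The shares of loci called were 3.98% against UUO-7 and 41.7% against sham.

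In ECs of R-UUO mice miR-21a-5p was at 7452, 4039, 4071 and 4718 CPM, 5.45-fold above sham (2.45 ± 0.19, edgeR adjusted p = 2.34e-07). Mouse 1 was the highest. The 4 stromal markers summed to 20396, 45630.5, 7521 and 35838 CPM in these libraries, 17.3%, 38.6%, 6.37% and 30.4% of the PDGFR-β+ mean, against 10965 to 23978 CPM in sham ECs. Without mice 2 and 5, which carried the most, an analysis added after seeing the data, the rise over sham was 2.65 for the 5p arm and 2.47 for the 3p arm (edgeR adjusted p = 9.3e-07 and 9.88e-05). Against UUO-7 the difference was 0.041 ± 0.18 (95% interval -0.32 to 0.40, edgeR adjusted p = 0.911). miR-21a-3p, at 41.2, 25.7, 19.2 and 18.7 CPM, stayed 4.7-fold above sham (2.23 ± 0.30, edgeR adjusted p = 6.12e-05) and differed from UUO-7 by -0.72 ± 0.28 (edgeR adjusted p = 0.124). Only 1.07% of loci were called against UUO-7 in ECs.

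In Macs of R-UUO mice miR-21a-5p was at 133301, 115662, 83805 and 56701 CPM, all above sham (1.91-fold, 0.93 ± 0.18, edgeR adjusted p = 0.000567). Against UUO-7 the libraries lay on both sides (0.43 ± 0.18, edgeR adjusted p = 0.0859), and without R-UUO mouse 5 the higher level was called (0.67, edgeR adjusted p = 0.000305). miR-21a-3p was at 1668, 1996, 1179.6 and 952 CPM, 2-fold above sham (1.00 ± 0.19, edgeR adjusted p = 0.000545) and -0.32 ± 0.19 from UUO-7 (edgeR adjusted p = 0.233). Without R-UUO mouse 2 the log2 rise of the 3p arm over sham was 0.65. In Macs 19.9% of loci were called against UUO-7 and 31.9% against sham.

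In PT cells the 5p arm was called above sham after reversal and the 3p arm was not. The arm ratio, described below, compares the arms directly. It was called against sham but not against UUO-7 (limma adjusted p = 0.0249 and 0.207), and the first call was lost in several repeats that left out libraries. miR-21a-5p was at 47312, 15689, 11520.4 and 13249.8 CPM in R-UUO, all above sham (3-fold, 1.58 ± 0.36, edgeR adjusted p = 0.00257), while miR-21a-3p, at 215, 142, 66.8 and 112 CPM, overlapped with sham (0.29 ± 0.30, 95% interval -0.30 to 0.88, edgeR adjusted p = 0.443). Mouse 1 had by far the highest 5p value. Without it the rise over sham was 0.92 (edgeR adjusted p = 0.00222), still called. The difference from UUO-7 turned on the same library. With it neither arm was called (5p -0.17 ± 0.35, edgeR adjusted p = 0.919, and 3p -1.10 ± 0.30, edgeR adjusted p = 0.0611), and without it both had fallen (5p -0.85, edgeR adjusted p = 0.0305, and 3p -1.39, edgeR adjusted p = 0.0185). Without UUO-7 mouse 4, R-UUO mouse 4 or R-UUO mouse 5 the 5p difference was slightly above 0 (0.071, 0.047 and 0.022). Of all loci 1.52% were called against UUO-7 and 38.8% against sham.

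The PT library of R-UUO mouse 1 also stood apart in its markers. Its 4 stromal markers summed to 25719.7 CPM, 21.8% of the mean of PDGFR-β+ cells in R-UUO, against 3732 to 5725 CPM in the other 3 mice. Its 5 tubular markers were the lowest of the group, at 22061 CPM against 40466 to 71551. The PT library of UUO-7 mouse 4, the highest of its group in miR-21a-5p, also carried the most stromal marker there, at 18057 CPM (12.9% of the PDGFR-β+ mean) against 6932 to 8359. In sham PT cells the stromal markers were at 1523 to 3382 CPM and at UUO-2 at 6574 to 10024 CPM. Their part in the level of miR-21a-5p was not tested. With both libraries left out, miR-21a-5p of PT cells was still above sham in R-UUO (0.86, edgeR adjusted p = 0.000109) and had fallen from UUO-7 (-0.62, edgeR adjusted p = 0.0338), and miR-21a-3p had fallen from UUO-7 (-1.16, edgeR adjusted p = 0.0209). The distance of R-UUO mouse 1 depended on the scaling. As a share of all counts its miR-21a-5p was at 2.02%, against 1.15% to 1.62% in the other 3, and its TMM scaling factor of 0.427 was the lowest of the PT libraries.

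**Figure D3:**
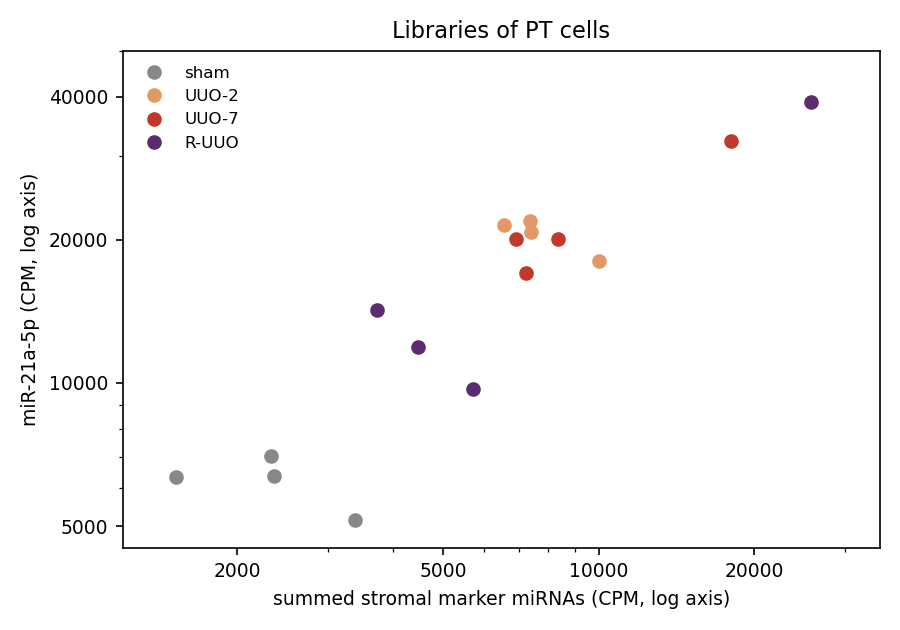
miR-21a-5p against the summed level of 4 stromal marker miRNAs in the 16 PT libraries, both in CPM on log axes with all libraries scaled together, 1 point per library colored by condition. R-UUO mouse 1 (39015 CPM of miR-21a-5p) and UUO-7 mouse 4 (32236 CPM) lie at the top right, at 25719.7 and 18057 CPM of stromal markers.

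The ratio of the arms differed between populations, and its shift with obstruction was called only in Macs. At UUO-2 its log2 shift from sham was -0.83 in ECs and -1.33 in PDGFR-β+ cells. Neither was called, and both had a larger SE than in Macs. These shifts were not compared between cell types. The ratio was taken from the counts of 1 library, so scaling does not enter it. Sham Macs had 68.6, 77.3, 83 and 55.8 counts of miR-21a-5p per count of miR-21a-3p. At UUO-2 the ratio was 35, 38, 38.2 and 44.1, and at UUO-7 it was 54.9, 37.7, 38.7 and 32.9. After reversal it was 79.9, 57.9, 71 and 59.6. Sham and R-UUO Macs overlapped, and all of their ratios lay above all those of UUO-2 and UUO-7. On the log2 scale the fall was -0.86 ± 0.18 SE at UUO-2 and -0.81 ± 0.18 at UUO-7 (limma adjusted p = 0.0057 and 0.00522), and the rise from UUO-7 to R-UUO was 0.72 ± 0.18 (limma adjusted p = 0.0287). R-UUO did not differ from sham (-0.082 ± 0.18, 95% interval -0.44 to 0.28, limma adjusted p = 0.816), nor UUO-7 from UUO-2 (0.059 ± 0.18, limma adjusted p = 0.848). Over the 113 hairpins with both arms tested in Macs, the arm ratio was called for 12.4% at UUO-2 and 28.3% at UUO-7 against sham, 23.9% between these, 6.19% for R-UUO against UUO-7 and 18.6% against sham. The return after reversal was no longer called without R-UUO mouse 1 or 4 or UUO-7 mouse 3, 4 or 5, with values of 0.63 to 0.70. For a single hairpin an exact permutation test of 4 against 4 mice cannot go below p = 0.0286, the value that each of these 3 shifts in Macs reached.

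In PT cells the ratio was 57.8, 83.1, 73.5 and 56.4 in sham and 76.1, 114, 62.5 and 80.1 at UUO-2. Libraries of UUO-7 gave 104, 65.1, 86.2 and 91.4, and those of R-UUO 219.6, 111, 172 and 118. The R-UUO ratios lay above those of sham and UUO-7, and UUO-2 mouse 2 reached into their range. Against sham the log2 difference was 1.16 ± 0.26 (limma adjusted p = 0.0249), the smallest p of the 75 hairpins tested, of which 2.67% were called, whereas that against UUO-7 was not called (0.80 ± 0.26, limma adjusted p = 0.207). Without R-UUO mouse 1 or 4, or sham mouse 1 or 4, the call against sham was lost, with values from 0.97 to 1.09, as it was with the 2 libraries rich in stromal markers left out (0.97, limma adjusted p = 0.104). The other 4 comparisons of PT cells called 0% of hairpins each.

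In ECs the ratio was 185, 149.7, 199 and 138 in sham and 50, 108, 115 and 119 at UUO-2. Libraries of UUO-7 gave 152, 96.3, 115 and 108, and those of R-UUO 181, 157, 212 and 252. All UUO-2 ratios lay below sham and all R-UUO ratios above UUO-7, but neither was called (log2 -0.83 ± 0.28 and 0.76 ± 0.28, limma adjusted p = 0.361 and 0.248). Of 118 hairpins 0.847% were called at UUO-7 and 0% in the other comparisons. In PDGFR-β+ cells the ratio was 87.5, 185, 166 and 401 in sham, the last of these from 8 counts of the 3p arm, and 70.2, 71, 49.4 and 99.8 at UUO-2. It was 108, 102 and 98.5 at UUO-7 and 202, 113, 155 and 115 in R-UUO. None of the 5 comparisons was called, the largest being UUO-2 against sham (log2 -1.33 ± 0.38, limma adjusted p = 0.106), which was called without sham mouse 1 (-1.67, limma adjusted p = 0.0458). Of 128 hairpins 10.2% were called at UUO-7 against sham, 3.12% between UUO-2 and UUO-7, 8.59% in R-UUO against sham and 0% in the rest.

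**Figure D4:**
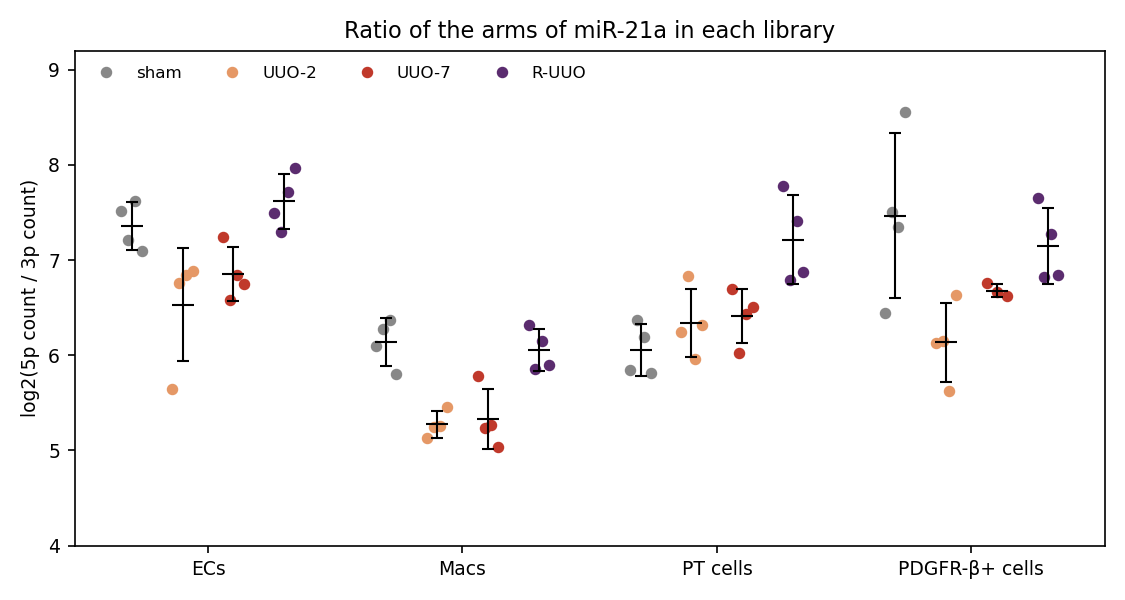
Log2 ratio of miR-21a-5p to miR-21a-3p counts (pseudocount 0.5) in each library by cell type and condition, with the mean and SD in black; the axis starts at 4. The Mac libraries of UUO-2 and UUO-7 lie below those of sham and R-UUO, and the R-UUO libraries of PT cells above those of sham and UUO-7.

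Over all mice Macs held more of the 3p arm relative to the 5p arm than the other populations, though in sham they did not stand apart from PT cells. Within the same mouse the log2 ratio was lower in Macs than in ECs in 16 of 16 mice (mean difference 1.39 ± 0.34 SD), lower than in PDGFR-β+ cells in 15 of 15 (1.14 ± 0.56 SD) and lower than in PT cells in 14 of 16 (0.81 ± 0.59 SD). Both exceptions were sham mice (1 and 3), so sham mice split 2 to 2 between Macs and PT cells, and all 12 mice with obstruction or reversal had the lower ratio in Macs. Exact sign-flip permutation tests adjusted over the 6 pairs gave p = 0.000183, 0.000183 and 0.000793, 2-sided, and for the first 2 pairs every mouse points 1 way, which gives the smallest p the flips allow. ECs also exceeded PT cells in 13 of 16 mice (0.59 ± 0.61 SD, exact adjusted p = 0.0032). PDGFR-β+ cells did not differ from ECs (ECs higher by 0.26 ± 0.69 SD, exact adjusted p = 0.171) or from PT cells (PT cells lower by 0.33 ± 0.83 SD, exact adjusted p = 0.166). The first of these 2 was called without sham mouse 4 (0.38, exact adjusted p = 0.0204).

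R-UUO mouse 1 gave the highest miR-21a-5p of the 4 R-UUO mice in each of its 4 populations. The same was not true of miR-21a-3p, for which mouse 1 was highest in ECs and PT cells and mouse 2 or 5 in the others. With 4 mice the 5p pattern is a description of this animal.

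The table also holds 2 relatives that a reader may confuse with miR-21a-5p. They are shown with the seed in capitals, because they match the 5p arm over most of their length.
miR-21b: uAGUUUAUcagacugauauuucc
miR-21c: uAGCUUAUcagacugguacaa

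Counted from the 5′ end, miR-21b differs from miR-21a-5p by C4U within the seed and by G18A, G21U and A22C, and it has 1 base more. miR-21c keeps the seed and the first 15 bases and differs by A16G, G18A, U19C, U20A and G21A. Neither miR-21b nor miR-21c had a single count in any of the 63 libraries, so the 5p values above are those of 1 locus. The aligner used, ShortStack, has several ways of placing reads that fit more than 1 locus, and the one chosen is not given in the sources used here.

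The miRNAs whose level over the 16 groups was most like that of miR-21a-5p were miR-186-5p (Pearson r = 0.91), miR-148b-5p (0.877), miR-155-5p (0.842), miR-146b-5p (0.833) and miR-148b-3p (0.822), of 669 loci compared as mean log2 CPM. The 2 arms of miR-21a correlated at 0.967. After each cell type's own mean was taken off, which leaves the changes with condition, the closest to miR-21a-5p were miR-155-5p (0.949), miR-676-5p (0.881), miR-146b-5p (0.87), miR-186-5p (0.865) and miR-15b-5p (0.863). For miR-21a-3p they were miR-331-5p (0.891), miR-155-5p (0.889), miR-2137 (0.849), miR-142a-3p (0.84) and miR-142b (0.84). Group means of miR-331-5p were only 0.0961 to 3.07 CPM, where 3 counts are 0.277 to 4.87 CPM, so its place rests on very few counts. The locus of miR-142b lies wholly within that of miR-142a-3p, with nearly the same counts, so these are not 2 separate signals. These values describe the 16 groups, whose libraries share mice and scaling, and no test was made of them. miR-155-5p, an inflammatory miRNA of leukocytes, rose with miR-21a-5p in PDGFR-β+ cells from a mean of 2.25 CPM in sham to 109 CPM at UUO-7 (log2 5.63, edgeR adjusted p = 6.63e-07) and was at 81.5 CPM in R-UUO. Its sham level there rests on few counts. With all libraries scaled together it was 0.876 to 6.6 CPM, where 3 counts are 0.378 to 1.1 CPM.

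Against miRNAs known from inflammation or fibrosis, most loci of both lists rose together with miR-21a in PDGFR-β+ cells at UUO-7, where 48.2% of all loci were called in either direction. Of 9 miRNAs induced in inflammation 8 were tested there. All 8 of these rose at UUO-7, and 7 were above sham in R-UUO, where 41.7% of all loci were called. The most abundant were miR-146b-5p (log2 5.16 at UUO-7, edgeR adjusted p = 5.91e-10), miR-222-3p (1.57), miR-146a-5p (1.35) and miR-132-3p (1.93), against 4.97 for miR-21a-5p. Of 7 miRNAs raised in fibrosis, with 9 loci tested, 8 loci rose at UUO-7, among them miR-199a-3p (2.09) and miR-199a-5p (2.39) of chromosome 1, miR-214-3p (3.06) and miR-214-5p (2.59). miR-199a has copies on chromosomes 1 and 9 whose reads may be split between loci, and miR-199a-5p and miR-214-3p also serve as stromal markers here. Likewise miR-223-3p of the inflammation list is a leukocyte marker, and miR-200b-3p of the antifibrotic list is a tubular marker. Of 12 miRNAs held to be antifibrotic, with 14 loci, 5 loci fell and none rose, a smaller share called than the 48.2% of all loci. The median log2 change of the lists was 2.09, 2.39 and -0.70, beside 0.50 for all loci.

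In the other populations at UUO-7, where miR-21a-5p was raised in ECs and PT cells and not called in Macs, the inflammation list rose in 6 of 9 (ECs), 7 of 9 (Macs, 1 fell) and 3 of 7 tested (PT cells). The shares of all loci called in either direction were 11.5%, 43.1% and 43%, so the count in PT cells is near the background. The fibrosis list rose in 0 of 7 (ECs, 1 fell), 4 of 5 tested (Macs) and 1 of 3 tested (PT cells). Of the 14 antifibrotic loci, 4 fell in ECs, 7 fell and 1 rose in Macs, and 5 fell and 3 rose in PT cells, to be read against the same shares.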

How the data were processed

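Mature miRNA libraries of 63 sorted populations from 16 mice were compared. The authors trimmed reads with Trim Galore 0.4.1 and cutadapt 1.1, mapped these with ShortStack, which runs Bowtie and places multi-mapping reads, against GRCm38 and the miRBase loci, and deposited raw counts per mature locus, 2110 loci in all. The ShortStack settings, and how strand was treated, are not given in the sources used here. Mice are separate animals. The members and gene lists were chosen with earlier results of these data known.

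Loci were filtered with filterByExpr and scaled by TMM, and edgeR 4.0.16 (R 4.3.3) quasi-likelihood tests with Benjamini-Hochberg adjustment over all loci tested were fitted within each cell type, with all conditions in 1 fit, and over all libraries for differences between cell types. Calls needed an FDR under 0.05 and a fold above 1.5. Arm ratios, log2 of 5p over 3p counts with a pseudocount of 0.5, were fitted with limma 3.58.1 over all hairpins with 1 locus per arm, and compared between cell types by exact sign flips within mice (scipy 1.17.1). Each fit was tested on simulated data. Alternatives were DESeq2 1.42.0, library size without TMM, no low-count filter, only the compared groups, a pseudocount of 1, a replicate block, an exact permutation test and each library or mouse left out. Libraries held 616565 to 10819385 counts, and since reads carry no molecular identifiers, counting floors cover counting error only. Replicate libraries differed by far more than counting error, with a chi-square per degree of freedom of at least 8.96. Named miRNAs are both arms, their namesakes and seed relatives, the 5 loci most like each arm, and the lists. miR-590-5p is not analysed here.

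Libraries of 1 mouse from different cell types showed little shared deviation (93 pairs, median r 0.0485, 31 above 0.1), though the pairing comes from the sort itself. The main edgeR fits between cell types treated libraries as independent. The mouse was a block in an alternative fit of each of these results.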

Additional observations from a re-analysis of the deposited data

Results flagged for a closer look

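The 15 groups of 4 libraries were searched on 3 measures (both arms and their ratio), and in 4 of these 45 searches 1 sample lay far from the other 3. Chance alone gives about 1 in 20, but the 3 measures share their libraries and are not independent. miR-21a-5p stood at 47312 CPM in the PT library of R-UUO mouse 1, against a median of 13249.8 in the others, and at 36104 CPM in that of UUO-7 mouse 4, against 21502. These are the PT libraries with the most stromal marker miRNA of their groups. miR-21a-3p was low, at 27.3 CPM, in the EC library of UUO-7 mouse 2, against a median of 47.6. The log2 ratio of the arms was low, at 5.64, in the EC library of UUO-2 mouse 1, against 6.85.

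The change from sham differed between 1 cell type and the mean of the other 3 in 16 of the 24 tests made (edgeR, difference of log2 changes). In PDGFR-β+ cells the change was larger for both arms after 2 days (1.66 for 5p, 2.05 for 3p) and 7 days of obstruction (3.49 and 3.55) and after reversal (3.16 and 3.57). In Macs it was smaller for both arms after 2 days (-1.44 and -1.07), after 7 days (-2.69 and -2.07) and after reversal (-2.01 and -1.45). In PT cells it was smaller for 3p after 2 days (-1.44), 7 days (-1.65) and reversal (-2.27), and for 5p after reversal (-1.06).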

How the results depend on the processing

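Of 1357 repeats of 114 results, 1250 kept their direction and their side of the threshold, 44 lost a call, 25 gained one and 38 changed sign, the last mostly for values near 0. The cause was not tested. Leaving out a library also redoes the low-count filter and the scaling, so these values need not surround the one reported.

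With library size only the median of all loci moved by up to 0.55 (PDGFR-β+ cells, UUO-7 against UUO-2) and by -0.45 (PT cells, R-UUO against sham). On that scale miR-21a-5p in PDGFR-β+ cells at UUO-7 was 5.47 above sham. Calls gained there were 5p at UUO-7 in Macs (0.63), PT over PDGFR-β+ cells at UUO-2 (5p 1.14, 3p 1.00), Macs over PDGFR-β+ cells in R-UUO (5p 1.15) and the 5p change of PT cells against the rest at UUO-7 (-1.41). The 3p change of Macs at UUO-2 lost its call (-0.69), and signs changed for PDGFR-β+ cells over Macs at UUO-7 (5p -0.48), 5p R-UUO against UUO-7 in ECs (-0.11), 5p UUO-7 against UUO-2 in PT cells (-0.13) and 3p R-UUO against sham in PT cells (-0.29).

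DESeq2 called 3p R-UUO against UUO-7 in PT cells (-1.09) and the 5p change of PT cells against the rest at UUO-7 (-1.13), lost the 3p change of Macs at UUO-2 (-0.82) and gave -0.011 for 5p R-UUO against UUO-7 in ECs. Without the low-count filter the same 2 PT calls were made (-1.12 and -0.67), 5p UUO-7 against UUO-2 in Macs was called (-0.62), and 3p UUO-7 against UUO-2 was 0.0044 in ECs and 0.065 in PT cells. The 4 called arm ratios lost their call without that filter and under the exact permutation test, with values as reported (Macs UUO-2 -0.86, UUO-7 -0.81, R-UUO against UUO-7 0.72, and PT cells R-UUO 1.16). Without the filter the SE of the Mac ratio was 0.28, against 0.18 with it. Under the exact permutation test, adjusted over 20 comparisons, each of these 4 ratios had p = 0.0816, the smallest adjusted value found.

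Within a cell type mice share only a replicate number across conditions (74 pairs, median r -0.0175, 8 above 0.1). With the replicate block 5p at UUO-7 in Macs was called (0.69), 3p UUO-7 against UUO-2 in Macs was not (-0.49), nor were the arm ratios of R-UUO against UUO-7 in Macs (0.73) and of R-UUO against sham in PT cells (1.14), and signs changed for 5p R-UUO against UUO-7 in ECs (-0.015) and 3p UUO-7 against UUO-2 in ECs (0.10) and PT cells (0.14). The mouse as a block changed 1 call between cell types, the 5p change of PT cells at UUO-7 (-0.73).

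With both EC libraries of R-UUO rich in stromal markers left out, no call of the 6 EC results changed. With both PT libraries rich in stromal markers left out, chosen after seeing the data, R-UUO against UUO-7 was called for both arms (5p -0.62, 3p -1.16), the arm ratio of R-UUO against sham was not (0.97), and 3p R-UUO against sham (-0.035) and 5p UUO-7 against UUO-2 (-0.15) changed sign.

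Leaving out 1 library or mouse changed a call or a sign in these results, with their lowest and highest values. Within cell types these were 3p R-UUO against UUO-7 in PT (-1.39 to -0.88), 3p UUO-7 against UUO-2 in EC (-0.15 to 0.20), 3p UUO-7 against UUO-2 in Mac (-0.74 to -0.51), 3p UUO-7 against UUO-2 in PDGFR-β+ (1.15 to 1.34), 3p UUO-7 against UUO-2 in PT (-0.24 to 0.11), 5p R-UUO against UUO-7 in EC (-0.22 to 0.12), 5p R-UUO against UUO-7 in Mac (0.30 to 0.67), 5p R-UUO against UUO-7 in PT (-0.85 to 0.071), 5p UUO-7 against UUO-2 in Mac (-0.62 to -0.53), 5p UUO-7 against UUO-2 in PT (-0.17 to 0.19). Between cell types they were 3p UUO-7 PDGFR-β+ against UUO-7 PT (0.91 to 1.31), 3p sham PDGFR-β+ against sham EC (-0.36 to 0.88), 5p R-UUO Mac against R-UUO PDGFR-β+ (0.21 to 0.72), 5p UUO-7 PDGFR-β+ against UUO-7 Mac (-0.040 to 0.26). For the change in 1 cell type against the rest they were 3p R-UUO against sham in EC (-0.18 to 0.27), 3p UUO-2 against sham in Mac (-1.27 to -0.71), 3p UUO-7 against sham in EC (-0.15 to 0.29), 5p R-UUO against sham in EC (-0.36 to 0.012), 5p R-UUO against sham in PT (-1.56 to -0.84), 5p UUO-2 against sham in EC (-0.022 to 0.095), 5p UUO-2 against sham in Mac (-1.46 to -1.08), 5p UUO-7 against sham in PT (-0.89 to -0.62). For the arm ratio they were EC against PDGFR-β+ (0.19 to 0.38), R-UUO against UUO-7 in Mac (0.63 to 0.87), R-UUO against sham in PDGFR-β+ (-0.66 to 0.049), R-UUO against sham in PT (0.97 to 1.30), UUO-2 against sham in PDGFR-β+ (-1.67 to -0.96), UUO-7 against UUO-2 in Mac (-0.091 to 0.16), UUO-7 against UUO-2 in PT (-0.051 to 0.24).

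The number of loci called moved by over 1.5 times in some comparisons. In ECs UUO-2 against sham called 8, but 16 with DESeq2, 5 with library size and 28 with no filter. UUO-7 against UUO-2 called 9, but 16 with no filter. R-UUO against UUO-7 called 5, but 37, 25 and 39 in the same order, 3 with the block and 2 with only the compared groups. In PT cells UUO-2 against sham called 63, but 96 with only the compared groups. UUO-7 against UUO-2 called 14, but 28, 8, 36 and, with the compared groups, 40. R-UUO against UUO-7 called 5, but 22 with DESeq2, 24 with no filter and 0 with library size, the block or the compared groups. In PDGFR-β+ cells UUO-2 against sham called 30, but 49 with no filter, and R-UUO against UUO-7 called 19, but 33, 12, 55 and, with the compared groups, 7. The 3p arm rests on 8 to 147 counts in sham PDGFR-β+ cells, which limits its changes there.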
